A study of Homo sapiens with 12 samples.

Results

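Caveolins and cavins build caveolae, the small flask-shaped pits of the plasma membrane, and the RNA of 6 genes for these proteins was followed in HK2 cells with and without FLCN knockdown. The genes are CAV1, CAV2, CAVIN1, CAVIN2, CAVIN3 and EHD2, found by name among the 58288 gene IDs counted. They were selected on the strong rise of CAVIN2 after short-term FLCN knockdown in these libraries, so the short-term values of the set are described below without a test. All 6 passed the filter on low counts, as did 13959 genes in all, CAVIN2 only because its counts are high in the short-term knockdown libraries.

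HK2 is an immortalised human cell line derived from the proximal tubule of the kidney. Its cells expressed an shRNA, a hairpin RNA that lowers a matching mRNA, against FLCN (FLCN knockdown) or, as a control, against no human transcript (nontarget, called shControl in the labels). Cells of both kinds were sequenced at fewer than 30 passages (short-term) and at more than 120 passages (long-term), as the labels give it, which made 4 groups of 3 libraries. The study's methods state a lower limit for the long-term cells than the labels do. FLCN encodes folliculin, a tumour suppressor of lysosomal nutrient sensing that is lost in Birt-Hogg-Dubé syndrome. Passages were counted after clonal selection and no source used here ties a library to a clone, so the hairpin and the clone cannot be told apart. The labels call the libraries biological replicates without naming separate cultures, so p-values measure the spread between these libraries only.

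Libraries held 5825779 to 8991051 counts of reads in genes. FLCN was 2.51-fold lower after short-term knockdown (−1.33 ± 0.18 SE on the log2 scale, with an edgeR adjusted p of 0.000112) and 1.63-fold lower after long-term knockdown (−0.70 ± 0.18, edgeR adjusted p = 0.00611). The epithelial keratin genes KRT8 and KRT18, which lead the 5 epithelial markers, averaged 1680 and 645 CPM (counts scaled to the same total in every library) in short-term nontarget cells, and PAX8, a transcription factor of the kidney lineage, averaged 162 CPM. In contrast, 5 of the 10 proximal tubule markers stayed below 1 CPM in every library and LRP2, which encodes the receptor megalin, had 0 counts. Of the cell types known for many caveolae, the 7 endothelial markers summed to 0.116 to 2.46 CPM with KDR at 0, and the 4 adipocyte markers summed to at most 0.314 CPM with ADIPOQ and LEP at 0. The 5 smooth muscle markers summed to 49.5 to 96.6 CPM and the 7 fibroblast markers to 26.5 to 59.3 CPM, the latter higher in both short-term groups. The 4 leukocyte markers summed to 0.116 to 1.32 CPM, with PTPRC and CD3E at 0. Their part in the results was not tested, and in bulk RNA fewer cells of a type and less RNA per cell cannot be told apart.

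Caveolins are hairpin-shaped membrane proteins that assemble into oligomers in the inner leaflet of the membrane. Cavins are coat proteins that gather around these oligomers from the cytosol. CAV1 and CAVIN1 are both required for caveolae outside striated muscle, whereas CAV2 joins CAV1 in mixed oligomers. CAVIN2, first described as a serum deprivation response protein that binds phosphatidylserine and protein kinase C alpha, and CAVIN3, which binds protein kinase C delta, join the coat built on CAVIN1. EHD2 is an ATPase at the neck of caveolae that holds them at the cell surface. The caveolar membrane serves as a reserve that flattens when a cell is stretched.

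The genes lie on 5 chromosomes (GRCh38, GENCODE release 29). CAV2 (ENSG00000105971.14) spans chr7:116287380-116508541 and CAV1 (ENSG00000105974.11) spans chr7:116524785-116561184, both on the plus strand, with the start of CAV1 16244 bases past the end of CAV2. CAVIN1 (ENSG00000177469.12, chr17:42402452-42423517), CAVIN2 (ENSG00000168497.4, chr2:191834302-191847255) and CAVIN3 (ENSG00000170955.9, chr11:6318946-6320647) lie on the minus strand, and EHD2 (ENSG00000024422.11, chr19:47713343-47743134) lies on the plus strand. Promoter windows of 300 bases, from 250 before to 50 after a transcript start (RefSeq, GRCh38.p14), matched 4 of the 6 genes with 7 windows, some of which overlap. Windows for CAVIN1 and CAVIN3 were not analysed here.

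Sequences from the upstream part of the promoter windows of CAVIN2, the gene that led to the choice of the set, and of CAV1, the more abundant caveolin, are shown because they differ in base composition. The stretches stop short of the RefSeq start. Capitals mark matches, on either strand, to the motifs searched for. In these stretches they are the GC box GGGCGG (or CCGCCC when read on the other strand) and the TEAD motif GGAATG. The other motifs searched for, named below, had no match here. The stretch of CAVIN2 is chr2:191847256-191847338, minus strand, that of CAV1, before a start inside the gene, is chr7:116526112-116526276, plus strand, and the 2 short sites, both inside the genes as GENCODE draws them, are chr2:191847087-191847116, minus strand, and chr19:47713353-47713382, plus strand.
CAVIN2, upstream stretch: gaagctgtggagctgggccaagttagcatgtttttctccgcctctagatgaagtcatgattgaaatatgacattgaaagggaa
CAVIN2, TEAD motif at the start: ttaagagcagctGGAATGcagttcccctga
CAV1, upstream stretch: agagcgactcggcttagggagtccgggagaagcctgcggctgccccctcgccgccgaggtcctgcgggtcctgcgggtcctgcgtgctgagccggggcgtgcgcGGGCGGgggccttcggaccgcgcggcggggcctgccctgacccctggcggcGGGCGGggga
EHD2, GC box: gggcgcctcgtcCCGCCCctccctcctgtc

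The CAVIN2 window had a GC content of 49.3%, against a median of 58.7% over 35116 promoter windows and 61.7% to 82.7% in the windows of CAV1, CAV2 and EHD2. The GC box was found in 6 of the 7 windows, all but that of CAVIN2, and in 45.0% of all windows. The TEAD motif was found only in the CAVIN2 window, 16 bases before the transcript start, and in 4928 of the 35116. The E-box CACGTG, which TFE3 and TFEB read, was in none of the 7 windows and in 7.26% of all windows. The AP-1 motif TGACTCA (4.95% of all windows) and the TATA box TATAAA (11.5%) were also in none of the 7. A match describes the letters of the window and does not show that a factor binds there.

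CAVIN2 was the scarcest of the 6 genes outside the short-term knockdown cells. Its levels in the 3 short-term nontarget libraries were 0.273, 0.152 and 0.628 CPM, from 2, 1 and 4 counts. In the short-term knockdown libraries they were 17.0, 25.6 and 17.2 CPM, from 134, 175 and 97 counts. These libraries stood far above all 9 others, among which the highest value was 1.34 CPM. The long-term nontarget libraries had 1.34, 0.310 and 0.776 CPM, and the long-term knockdown libraries 0.347, 0 and 0 CPM, where a count of 0 allows a level of up to 0.443 CPM in replicate 2 and 0.497 CPM in replicate 3 (3 counts). With 406 counts against 7, the ratio of counts per total after short-term knockdown was 55.6. The fitted log2 fold change was 5.78 ± 0.43 (SE), the value that led to the choice of this set. Leukocyte markers summed to 0.304 to 0.943 CPM in the short-term nontarget and 1.06 to 1.32 CPM in the short-term knockdown libraries, with PTPRC and CD3E at 0 in all of them. Proximal tubule (296 to 342 against 391 to 419 CPM) and epithelial marker sums (2277 to 2524 against 2719 to 3576) were also higher without overlap. So were those of fibroblast markers (49.6 to 52.5 against 54.3 to 59.3). Endothelial, smooth muscle and adipocyte sums overlapped. Their part in the CAVIN2 values was not tested.

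CAV1, the main caveolin, was at 523, 499 and 444 CPM in short-term nontarget cells and at 692, 706 and 699 CPM in short-term knockdown cells. The groups did not overlap, and the fitted difference was 1.43-fold (log2 0.52 ± 0.10 SE). CAV2 was at 119, 124 and 121 CPM against 125, 122 and 137 CPM, and CAVIN1, the core of the cavin coat, at 781, 732 and 740 CPM against 716, 673 and 944 CPM. Both overlapped between groups, with fitted log2 differences of 0.08 ± 0.11 for CAV2 and 0.05 ± 0.13 for CAVIN1. CAVIN3 was at 32.5, 34.6 and 36.6 CPM against 33.0, 33.5 and 43.5 CPM, and EHD2 at 322, 259 and 268 CPM against 306, 279 and 442 CPM. These overlapped as well, with log2 differences of 0.08 ± 0.19 and 0.27 ± 0.17. When each library was left out in turn, the sign turned for CAVIN1 (−0.11 to 0.14) and CAVIN3 (−0.06 to 0.15). It was kept for CAV1 (0.45 to 0.57), CAV2 (0.02 to 0.11) and EHD2 (0.05 to 0.40). Groups that do not overlap were thus seen for 2 of the 6 genes and for 30.2% of all genes tested. An edgeR adjusted p below 0.05 was reached by 10.3% of all genes, 5.62% higher and 4.71% lower. The median of the 6 log2 fold changes was 0.18, and 0.08 without CAVIN2, against −0.00 over all genes. The median of the 6 was 0.04 to 0.27 when each library was left out in turn.

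**Figure D1:**
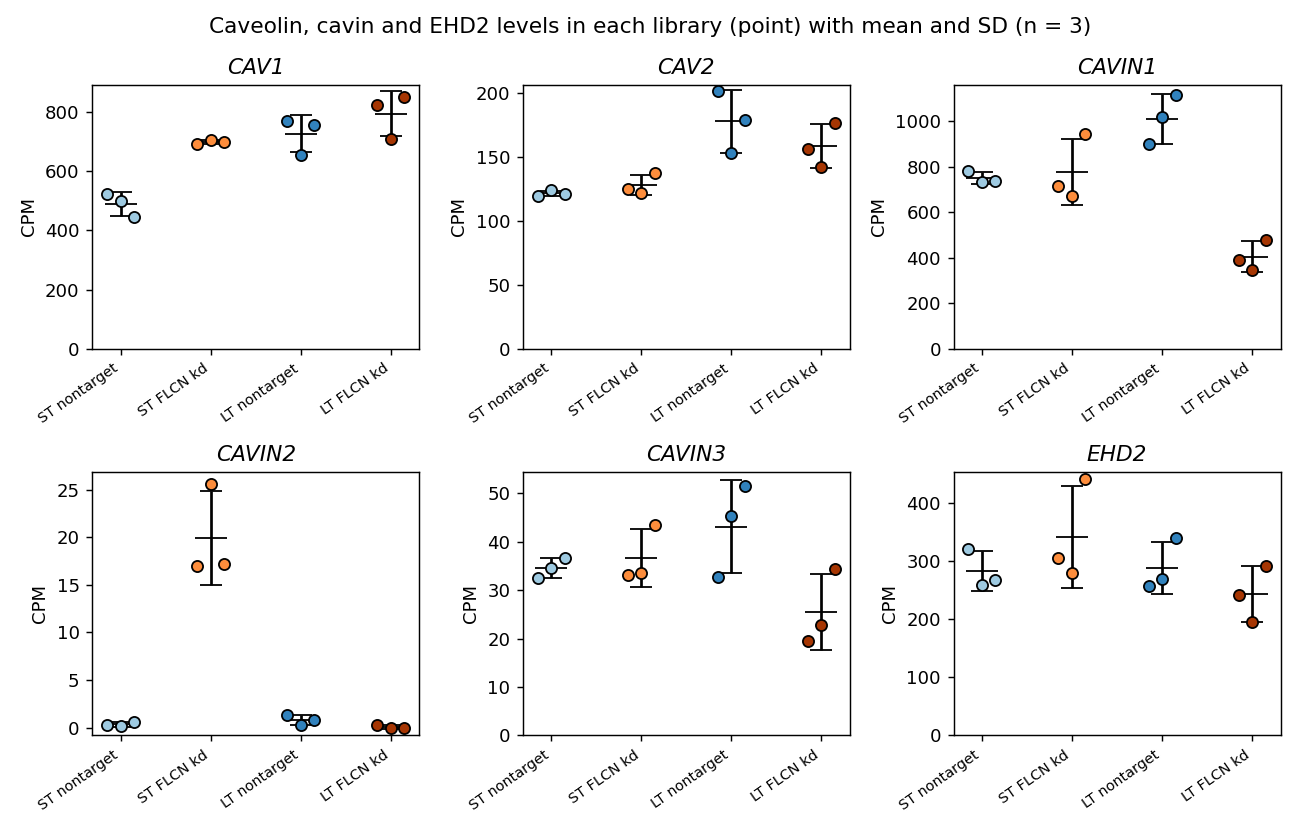
Level of each gene in CPM (linear axis) in every library (points) with the mean and SD of 3 libraries (lines), by group (ST, short-term; LT, long-term; kd, knockdown). CAVIN2 is high only in the short-term knockdown libraries (17.0 to 25.6 CPM), and CAVIN1 is lowest in the long-term knockdown libraries (344 to 478 CPM).

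After long-term knockdown CAVIN1 and CAVIN3 fell, and neither caveolin gene passed the test. CAVIN1 was at 898, 1018 and 1117 CPM in long-term nontarget cells and at 389, 344 and 478 CPM in long-term knockdown cells. Every knockdown library was below every control library. CAVIN1 fell 2.50-fold (log2 −1.32 ± 0.14 SE, edgeR adjusted p = 1.14e-06), and its log2 fold change was −1.46 to −1.23 when each library was left out in turn, with edgeR adjusted p-values of at most 1.76e-05.

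CAVIN3 was at 32.7, 45.2 and 51.5 CPM in long-term nontarget cells and at 19.5, 22.7 and 34.4 CPM in long-term knockdown cells. Replicate 3 of the knockdown group lay above replicate 1 of the controls, so the groups overlapped, although each knockdown library was below the control library of the same number. CAVIN3 fell 1.70-fold (log2 −0.77 ± 0.20, edgeR adjusted p = 0.00672), and the call was kept whichever library was left out. In GENCODE, 33.3% of the exon bases of CAVIN3 are shared with AC068733.3 on the opposite strand, whose counts were 0 in 3 groups and 2 in the long-term knockdown group.

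CAVIN2 had 18 counts over the long-term nontarget libraries and 3 over the long-term knockdown libraries. The ratio of counts per total was 6.16 in favour of the controls, and the fitted log2 fold change was −2.43 ± 0.86 (SE). These values are described only, because the gene passed the filter on low counts through its short-term knockdown libraries, and they rest on few reads. The fitted value was −5.53 without long-term knockdown replicate 1 and −1.88 without long-term nontarget replicate 1. The antisense gene AC098617.1 shares 7.22% of the exon bases of CAVIN2 and had 4, 19, 10 and 6 counts in short-term nontarget, short-term knockdown, long-term nontarget and long-term knockdown cells. Reads of the 2 genes over the shared bases cannot be told apart where strand was not counted. The sum of the endothelial markers also fell, at levels near the detection limit. It was 1.24 to 2.46 CPM in long-term nontarget and 0.116 to 0.678 CPM in long-term knockdown libraries. VWF averaged 1.31 and 0.057 CPM in these groups, PECAM1 0.176 and 0, and CDH5 0.045 and 0. CLDN5 (0.052 and 0.162) and TIE1 (0.138 and 0.193) went the other way. The part of these markers in the CAVIN2 values was not tested.

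CAV1 was at 770, 656 and 756 CPM in long-term nontarget cells and 823, 709 and 852 CPM in long-term knockdown cells. CAV2 was at 201, 153 and 179 CPM against 156, 142 and 176 CPM, and EHD2 at 257, 270 and 340 CPM against 242, 195 and 292 CPM. The groups overlapped for all 3 genes, and none passed the test. In every pair of libraries with the same number, by which these groups pair, CAV1 was higher and CAV2 and EHD2 were lower with knockdown. With the replicate number as a block the edgeR adjusted p was 0.246 for CAV1 and 0.166 for CAV2, and EHD2 was not called either. The log2 difference was 0.13 for CAV1 (95% interval −0.08 to 0.34, edgeR adjusted p = 0.372), −0.17 for CAV2 (−0.40 to 0.06, adjusted p = 0.281) and −0.25 for EHD2 (−0.62 to 0.12, adjusted p = 0.319). Of the 5 genes other than CAVIN2, 2 were lower and 0 higher at an edgeR adjusted p below 0.05, where 29.5% of all genes were called, 15.8% lower and 13.7% higher. Groups that do not overlap were seen for 1 of the 6 and for 39.6% of all genes. The median log2 fold change of the 6 was −0.51, and −0.25 without CAVIN2, against 0.00 over all genes.

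**Figure D2:**
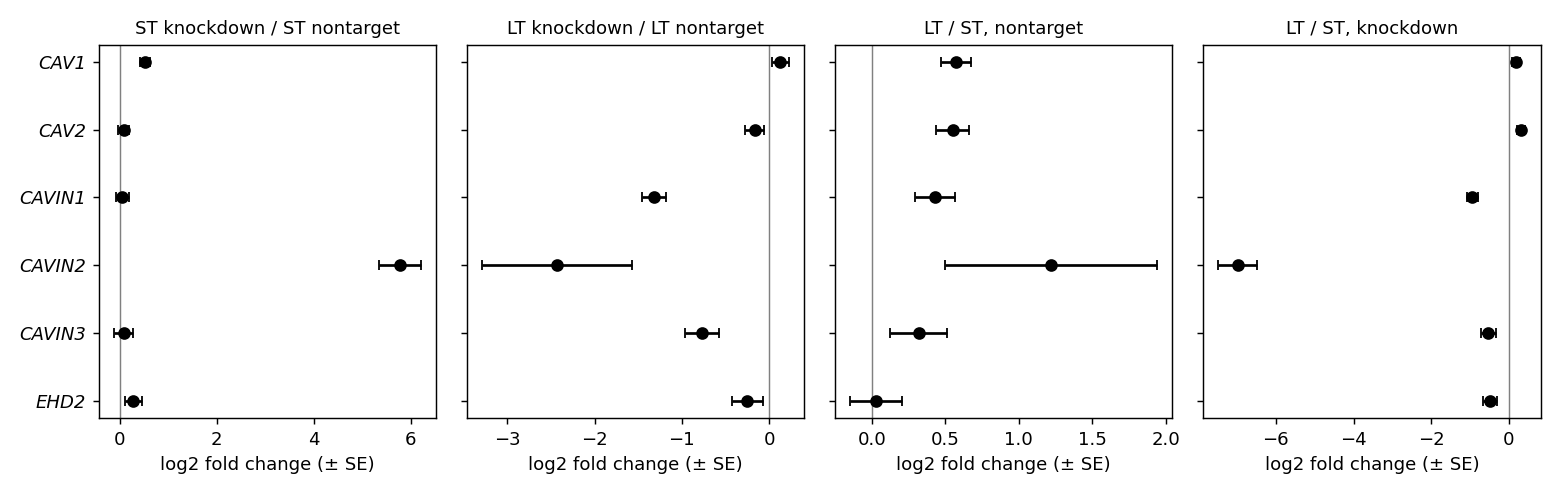
Fitted log2 fold change (points) with its SE (bars) for each gene in 4 comparisons of 3 against 3 libraries (ST, short-term; LT, long-term), each panel with its own horizontal scale. CAVIN2 stands at 5.78 in the short-term panel, and all genes but CAV1 lie below 0 in the long-term panel, CAVIN1 at −1.32.

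How far the knockdown effect in long-term cells departed from that in short-term cells is given without a test, since it contains the comparison that led to the choice of the genes. The departure (long-term minus short-term log2 fold change) was −1.37 ± 0.19 (SE) for CAVIN1, −0.85 ± 0.28 for CAVIN3 and −8.20 ± 0.99 for CAVIN2. For CAV1, CAV2 and EHD2 it was −0.39 ± 0.14, −0.24 ± 0.16 and −0.52 ± 0.25. Among all genes, 13.4% had an edgeR adjusted p below 0.05 for this difference.

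Cells of different passage number were compared within each hairpin. In nontarget cells both caveolins were higher in long-term than in short-term cells, CAV1 by 1.49-fold (log2 0.57 ± 0.10 SE, edgeR adjusted p = 0.00136) and CAV2 by 1.46-fold (0.55 ± 0.11, adjusted p = 0.00436). Neither gene's groups overlapped, and both calls were kept whichever library was left out. CAVIN1 was 1.35-fold higher in long-term cells with groups that did not overlap (log2 0.43 ± 0.13), but did not pass the test (edgeR adjusted p = 0.062). It passed with DESeq2 (adjusted p = 0.0423), without the filter on low counts (0.00307), with only these 2 groups in the fit (0.0078) and without long-term nontarget replicate 1 (0.0491). CAVIN3 and EHD2 overlapped between the groups, with log2 differences of 0.32 (95% interval −0.09 to 0.73, edgeR adjusted p = 0.409) and 0.03 (−0.34 to 0.40, adjusted p = 0.961). The sign for EHD2 turned when some libraries were left out. Thus 2 of the 5 genes other than CAVIN2 were called in these cells, both higher, where 7.55% of all genes were called (3.17% higher, 4.38% lower) and 25.7% had groups that do not overlap. CAVIN2, described only, had a log2 difference of 1.22 ± 0.72 from 18 against 7 counts, which became 1.86 without short-term nontarget replicate 3 and 0.67 without long-term nontarget replicate 1.

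In knockdown cells CAVIN1 and EHD2 fell and CAV2 rose with passage. CAVIN1 fell 1.92-fold from short-term to long-term knockdown cells (log2 −0.94 ± 0.14 SE, edgeR adjusted p = 5.33e-05), again with groups that did not overlap. CAV2 rose 1.24-fold (0.31 ± 0.11, adjusted p = 0.0495) and EHD2 fell 1.41-fold (−0.49 ± 0.18, adjusted p = 0.0491), both by edgeR and both close to the threshold. With the replicate number as a block, by which these libraries pair, the edgeR adjusted p was 0.0146 for CAV2 and 0.00222 for EHD2, and every pair moved the same way for each gene. The call of CAV2 was lost without short-term knockdown replicate 1 (0.127) or 2 (0.141) and without long-term knockdown replicate 1 (0.104) or 3 (0.156), as adjusted p-values of edgeR. It was also lost with RLE factors (0.0525), without the filter on low counts (0.0512), with genes under a mean of 10 CPM removed (0.058) and with only these 2 groups in the fit (0.0877), again as edgeR adjusted p-values. That of EHD2 was lost without short-term knockdown replicate 3 (0.23) and without long-term knockdown replicate 1 (0.104) or 2 (0.184), and with only the 2 groups in the fit (0.0807). CAVIN3 was at a log2 difference of −0.53 ± 0.20 with an edgeR adjusted p of 0.0589, which fell to 0.0021 with the replicate number as a block, as these libraries pair by number. It was also below the threshold with DESeq2 (0.0432), without the filter on low counts (0.00465) and without long-term knockdown replicate 3 (0.00317). CAV1 was at 0.19 (95% interval −0.03 to 0.40, edgeR adjusted p = 0.19), although its groups did not overlap. Called genes were therefore 3 of the 5, 1 higher and 2 lower, where 26.6% of all genes were called (11.5% higher, 15.2% lower) and 38.1% had groups that do not overlap. CAVIN2, described only, went from 406 to 3 counts (log2 −6.98 ± 0.49). These comparisons share libraries with the knockdown comparisons and are not independent of them.

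Levels between genes were compared as CPM per kilobase of exon. In short-term nontarget cells CAVIN1 was the highest at 196 ± 6.91 CPM per kilobase (SD, n = 3), followed by CAV1 at 120 ± 9.99, EHD2 at 72.2 ± 8.68, CAVIN3 at 20.7 ± 1.22, CAV2 at 17.5 ± 0.335 and CAVIN2 at 0.109 ± 0.0767. The order of the first 3 was the same in short-term knockdown and long-term nontarget cells. In long-term knockdown cells CAV1 was the highest, at 195 ± 18.5 CPM per kilobase, and CAVIN1 came after it at 106 ± 17.8. CAV2 and CAVIN3 were neighbours in every group and overlapped in 3 of the 4, all but the short-term nontarget cells. CAVIN2 was the lowest in every group, and its highest mean was 6.16 ± 1.53 CPM per kilobase, in short-term knockdown cells.

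The make-up of the set was also expressed as the share of each gene in the sum of the 6, on the per-kilobase scale. CAVIN1 made up 46.0%, 39.8%, 46.5% and 26.3% of the sum on average in short-term nontarget, short-term knockdown, long-term nontarget and long-term knockdown cells. The share of CAV1 was 28.1%, 34.0%, 31.5% and 48.8% in the same order, and CAVIN2 reached 1.24% in short-term knockdown cells. The level of CAVIN1 relative to CAV1 was 1.59, 1.56 and 1.78 in the short-term nontarget libraries and 1.10, 1.02 and 1.44 in the short-term knockdown libraries. It was 1.24, 1.65 and 1.58 in the long-term nontarget libraries and 0.505, 0.518 and 0.599 in the long-term knockdown libraries. The long-term knockdown libraries were the only 3 with less CAVIN1 than CAV1.

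**Figure D3:**
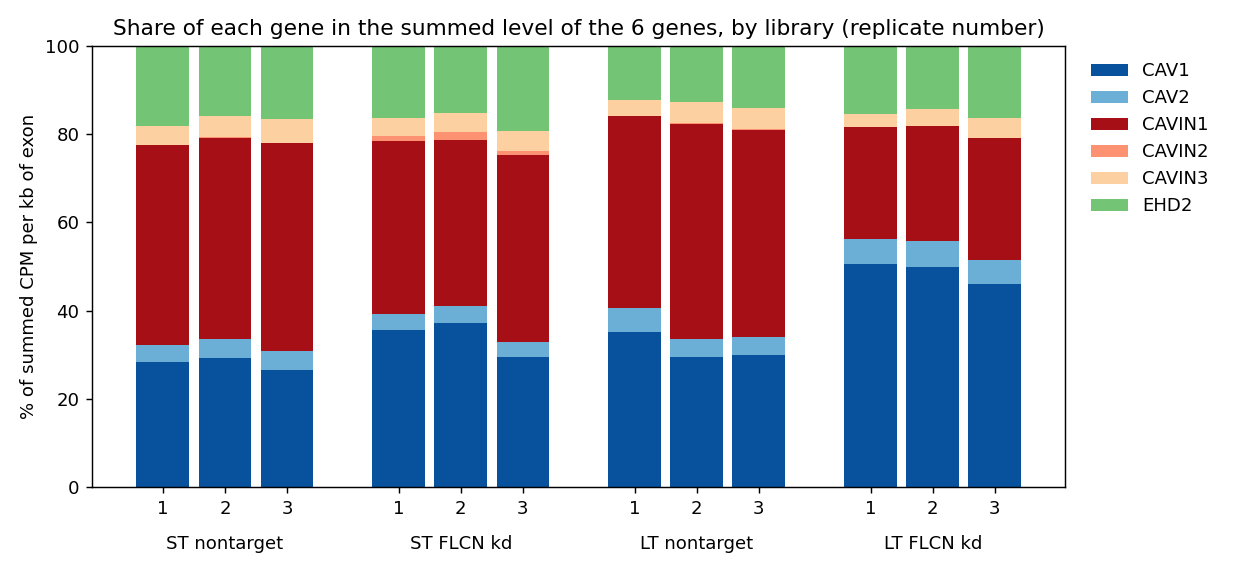
Share of each gene (colours) in the summed level of the 6 genes, in percent of CPM per kilobase of exon, for each library (bars, labelled by replicate number) of the 4 groups (ST, short-term; LT, long-term; kd, knockdown). CAVIN1 takes 26.3% on average in long-term knockdown cells and 39.8% to 46.5% in the other groups, while CAV1 takes 48.8% and 28.1% to 34.0%.

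Across the 12 libraries, log2 CPM of CAVIN1 and CAVIN3 had a Pearson r of 0.883, and those of CAV1 and CAV2 of 0.708. CAVIN1 and CAV1 had an r of −0.26. These values are descriptions, since the libraries share their groups. Replicate 3 had the highest level of CAVIN1, CAVIN3 and EHD2 in both knockdown groups and in the long-term nontarget group, so these 3 genes also varied together within groups. Fits with the replicate number as a block, given above for knockdown cells compared by passage, take up spread that libraries of the same number share. They lowered the edgeR adjusted p-values of CAVIN3 and EHD2 there. Beyond these fits, the part of this spread in the overlaps above was not tested.

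The genes on either side of a member on its chromosome were examined next. Among the 40 tested genes nearest to CAVIN2, the median log2 fold change after short-term knockdown was 0.25 and the highest was 1.49. Over all 932 tested genes of chromosome 2 the median was 0.31. Of the 40, 0 moved as far as CAVIN2, whose rise in this comparison led to the choice of the set. The flanking genes NABP1 and TMEFF2 were at 0.28 and −0.75. Among the 40 nearest to CAVIN1, the median after long-term knockdown was −0.06, and 2 moved at least as far as CAVIN1. The adjacent ATP6V0A1, named after its value was seen, was at −1.24, and STAT3 on the other side was at −0.00. For CAVIN3 the median of the 40 neighbours after long-term knockdown was −0.01, and 3 moved at least as far as CAVIN3. Its flanking genes SMPD1 and FAM160A2 were at −1.20 and −0.34. Over all tested genes of chromosomes 17 and 11 the medians after long-term knockdown were 0.16 and −0.04. Around CAV1 and CAV2 the median of the 40 neighbours from short-term to long-term nontarget cells was −0.18, whereas both caveolins rose. Over all 672 tested genes of chromosome 7 it was −0.22.

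**Figure D4:**
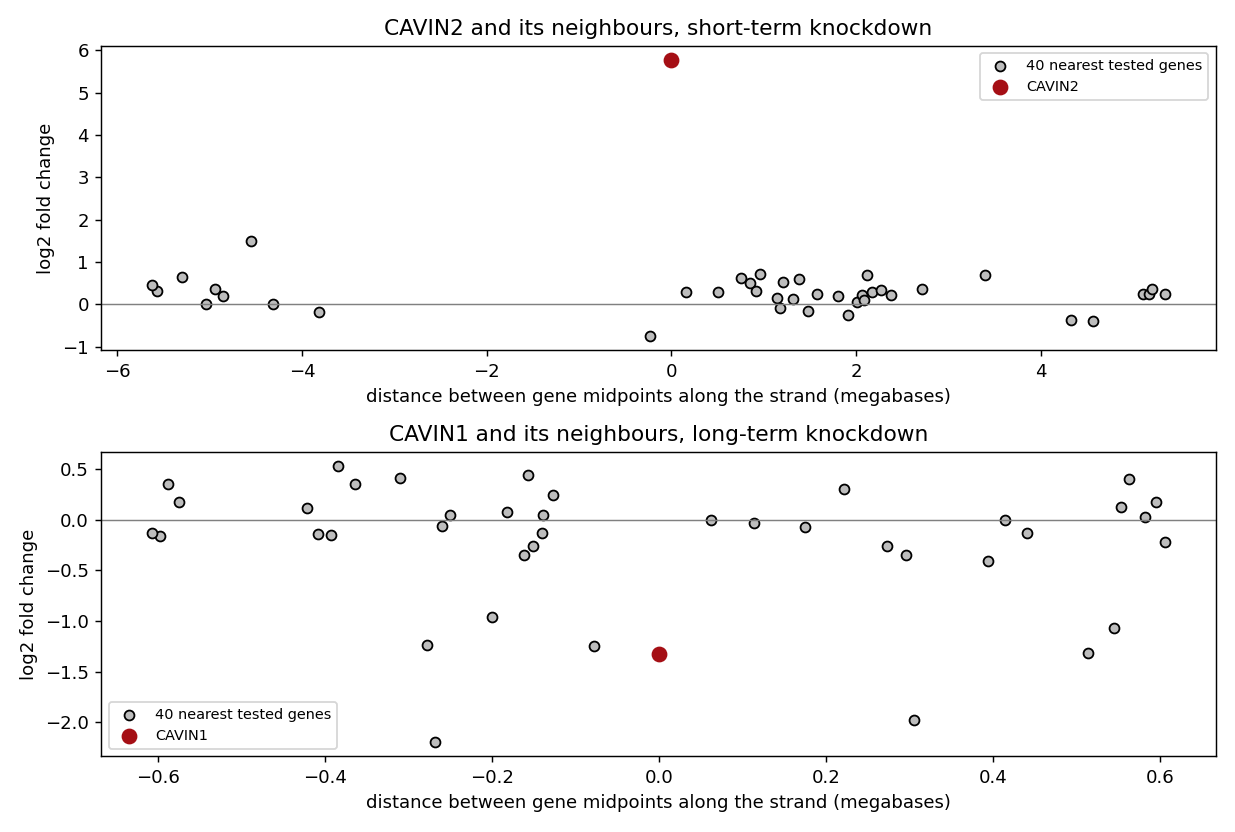
Log2 fold change (vertical axis) of CAVIN2 after short-term knockdown and of CAVIN1 after long-term knockdown (large points), and of the 40 tested genes nearest to each (small points), by distance between gene midpoints in megabases along the strand. All neighbours of CAVIN2 lie at or below 1.49 while CAVIN2 is at 5.78, the value that led to the choice of the set, and 2 neighbours of CAVIN1 lie below its −1.32.

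The genes whose pattern over the 12 libraries was most like that of CAVIN2 were sought among 10185 genes with a mean of at least 50 counts. They were VDAC2 (Pearson r of log2 CPM 0.957), a channel of the outer mitochondrial membrane, ST6GAL1 (0.948), a sialyltransferase of the Golgi, PRKCE (0.935), which encodes protein kinase C epsilon, SH3BP4 (0.933), an endocytic adaptor, and TMEM127 (0.923), a membrane protein of endosomes and lysosomes. ST6GAL1 was at 13.0, 35.3, 17.8 and 9.99 CPM on average in short-term nontarget, short-term knockdown, long-term nontarget and long-term knockdown cells. PRKCE was at 49.8, 90.1, 50.2 and 50.2 CPM in the same order. Each of the 5 was highest in the short-term knockdown group, and r here rests on the contrast of that group with the others.

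Other genes of caveolae were counted next, with dynamin 2, other EHD ATPases, the PACSIN membrane-bending proteins, filamin A and kinases among them. The muscle members CAV3 and CAVIN4 were nearly silent, with 1, 1, 0 and 0 counts for CAV3 and 9, 15, 28 and 9 for CAVIN4 in the 4 groups in the order above. Of 12 genes tested of the 15 listed, 0 were called after short-term knockdown by edgeR. The count was also 0 with DESeq2 and 0 at an unadjusted p below 0.05. In the long-term comparison 0 were called higher and 3 lower. EHD1, a recycling ATPase related to EHD2, fell from 160 ± 29.9 to 80.9 ± 19.7 CPM (SD, n = 3; log2 −0.99 by edgeR, adjusted p = 0.000715). PACSIN2, a curvature-sensing partner of caveolae, fell from 172 ± 11.7 to 120 ± 8.42 CPM (−0.52 by edgeR, adjusted p = 0.000493), and the tyrosine kinase gene ABL1 fell from 173 ± 30.1 to 119 ± 16.3 CPM (−0.54 by edgeR, adjusted p = 0.00681). With the replicate number as a block, 5 were called, 1 higher and 4 lower, where 36.8% of all genes were called under the same block. The share called in the long-term comparison was 25.0%, against 29.5% of all genes, and the median log2 fold change of the list was −0.16.

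Genes of other endocytic routes (clathrin, its AP2 adaptor, flotillins and others) were tested for 15 of 16 listed. After short-term knockdown 2 were called, both higher. The clathrin light chain gene CLTB rose from 43.2 ± 4.21 to 95.7 ± 9.98 CPM (SD, n = 3; log2 1.15 by edgeR, adjusted p = 0.000111) and FLOT1, which encodes a flotillin of membrane microdomains, from 131 ± 7.57 to 187 ± 7.49 CPM (0.52 by edgeR, adjusted p = 0.00164). The long-term comparison called 3 of them higher and 2 lower. FLOT1 rose from 153 ± 11.7 to 320 ± 23.8 CPM (1.06 by edgeR, adjusted p = 2.37e-07), and CLTB was at 0.53 (adjusted p = 0.0173). The adaptor genes STON2 and EPN2 both fell by 0.91 on the log2 scale, with edgeR adjusted p-values of 0.00128 and 0.00822. Shares called were 13.3% short-term and 33.3% long-term, near the 10.3% and 29.5% of all genes.

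Receptors and channels described in caveolae were tested for 14 of 17 listed. After short-term knockdown 3 were higher and 1 lower. KCNMA1, the pore of the large-conductance potassium channel, rose from 60.03 ± 5.56 to 138 ± 13.7 CPM (SD, n = 3; log2 1.20 by edgeR, adjusted p = 2.13e-06). The BMP receptor gene BMPR2 (0.52, adjusted p = 0.00574) and the growth factor receptor gene EGFR (0.42, adjusted p = 0.025) rose by edgeR, and the insulin receptor gene INSR fell (−0.73, adjusted p = 0.0136). In long-term cells 0 receptor or channel genes were higher and 4 lower. PDGFRB, a receptor of platelet-derived growth factor and also one of the fibroblast markers, fell from 7.41 ± 2.04 to 0.658 ± 0.461 CPM (−3.56 by edgeR, adjusted p = 1e-05). The sum of the fibroblast markers overlapped between these groups (26.5 to 33.8 against 28.3 to 36.8 CPM). SCARB1, a receptor for high-density lipoprotein, was at −1.07 (adjusted p = 0.000272), INSR at −0.47 (adjusted p = 0.0384) and the WNT co-receptor gene LRP6 at −0.36 (adjusted p = 0.0157), all by edgeR. Shares called were 28.6% in both comparisons, against 10.3% and 29.5% of all genes. The short-term count of 4 became 2 without nontarget replicate 1 or knockdown replicate 1, and the long-term count of 4 became 2 without knockdown replicate 3.

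Caveolae flatten under mechanical load, and CAV1 and CAVIN1 have been linked to the YAP/TAZ-TEAD pathway, which responds to such load. All 26 listed genes of this pathway were tested, among them YAP1, the TEAD factors and known targets. After short-term knockdown 2 were higher and 4 lower. F3, the gene for tissue factor, rose from 25.0 ± 1.83 to 56.4 ± 3.46 CPM (SD, n = 3; log2 1.17 by edgeR, adjusted p = 1.02e-05), while CCN2, a secreted matrix protein gene (−0.89, adjusted p = 0.000401), AMOTL2, an angiomotin family gene (−0.66, adjusted p = 0.022), and TEAD2 (−0.59, adjusted p = 0.0108) fell by edgeR. In long-term cells 2 genes of the pathway were higher and 14 lower. CCN2 fell from 342 ± 12.2 to 106 ± 12.04 CPM (−1.69 by edgeR, adjusted p = 1.09e-07), F3 from 55.1 ± 3.23 to 21.0 ± 3.28 CPM (−1.40, adjusted p = 2.37e-07), NT5E, an ecto-enzyme gene, from 62.4 ± 2.75 to 26.5 ± 2.28 CPM (−1.24, adjusted p = 2.16e-07) and AMOTL2 from 299 ± 52.6 to 137 ± 19.2 CPM (−1.12, adjusted p = 0.000126). In the long-term comparison 61.5% of the list was called and its median log2 fold change was −0.38, against 29.5% and 0.00 over all genes. In the short-term comparison 23.1% was called, against 10.3%, and the count of 6 became 2 without nontarget replicate 1 and 3 without nontarget replicate 3 or knockdown replicate 2.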

How the data were processed

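RNA of HK2 cells was measured in 12 libraries. The authors prepared polyA libraries (TruSeq), sequenced them on a MiSeq, trimmed reads with fastp, mapped them with STAR, counted them with featureCounts and tested them with DESeq2 in SARTools on GRCh38, per the labels and methods. Versions, annotation release and strand setting are not given in the sources used here. The deposited values are raw counts per gene and, in further columns, normalized values (unit score, counts that the authors divided by a factor per library and rounded), which were not used. The deposited per-library files differ from the count table in 0 values. IDs were matched to GENCODE release 29, 55619 with the same version, 2406 with another and 263 not at all. CCN1 and CCN2 were found by ID through a newer symbol table.

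Tests on the counts used edgeR 4.0.16 in R 4.3.3 (filterByExpr, TMM, robust quasi-likelihood fit, 1 model with a term per group). The filter kept 13959 genes with 99.8% of the counts. All tests were two-sided, with Benjamini-Hochberg adjustment over these genes and a threshold of 0.05. Prior counts were 0.125 for log2 fold changes and 2 for log2 CPM. SE is the log2 fold change divided by the square root of F. CPM uses the summed counts of the genes kept by the filter in each library, multiplied by its TMM factor. Exon length is the union of exons, and count ratios use total counts. Replicates differed by more than counting error (chi-square per degree of freedom 2.15 to 13.0), and the biological coefficient of variation was 12.0%. The fit was tested on simulated data with known changes.

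The genes followed and the gene lists were chosen with earlier results of these data known. Named are the 6 genes, FLCN, CAV3 and CAVIN4, genes that overlap a member, up to 4 called genes of largest change per list and knockdown comparison, and the 5 genes most like CAVIN2. Marker genes and flanking genes are named beside the result they belong to. Members were not tested in comparisons that their choice used. The long-term test of CAVIN2, planned with those of the other members, is not reported, since the gene passed the filter only through the short-term knockdown libraries.

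Libraries with the same number deviated together in both long-term groups (r = 0.284, 0.123 and 0.458) and in both knockdown groups (0.223, 0.292 and 0.455), so these pair by number. So did short-term knockdown and long-term nontarget libraries, which no comparison sets against each other (0.279, 0.150 and 0.467). The short-term groups (0.0172, 0.111 and 0.0540) and the nontarget groups (−0.0340, 0.0767 and 0.0250) do not. Alternatives were RLE factors, DESeq2 1.42.0, only the 2 groups compared, no filter, a mean of at least 10 CPM, a block for the replicate number, leaving out each library, and, added after seeing the data, a prior count of 2 for fold changes.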

Additional observations from a re-analysis of the deposited data

Results flagged for a closer look

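The effect of knockdown was compared between long-term and short-term cells for every tested gene of the 4 lists by the interaction test of edgeR. Of 67 genes, 19 (28.4%) passed an adjusted p of 0.05, set over all genes, 3 with a difference above 0 and 16 below, against 13.4% of all genes. By list these were 2 of 12 other caveola genes, 3 of 15 genes of other endocytic routes, 3 of 14 receptors and channels and 11 of 26 YAP/TAZ-TEAD genes. Of the genes named in the report, 11 were among them. They were named for a large change in one of the knockdown comparisons, which favours a difference, so their values (long-term minus short-term log2 fold change) follow as a description with no p.

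In the caveola list EHD1 differed by −1.35 (SE 0.26) and PACSIN2 by −0.59 (SE 0.14). Among other endocytic genes, FLOT1 differed by 0.54 (SE 0.13), with values above 0 in both comparisons, while EPN2 and STON2 differed by −1.42 (SE 0.33) and −1.17 (SE 0.26). Of the receptors and channels, KCNMA1 differed by −1.03 (SE 0.15), EGFR by −0.63 (SE 0.16) and PDGFRB by −2.64 (SE 0.64). Of the YAP/TAZ-TEAD genes, F3 differed by −2.57 (SE 0.18), with a rise in short-term and a fall in long-term cells. CCN2 differed by −0.80 (SE 0.19) and NT5E by −1.13 (SE 0.15).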

How the results depend on the processing

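The falls of CAVIN1 and CAVIN3 after long-term knockdown and the rises of CAV1 and CAV2 with passage in nontarget cells kept their direction and stayed below the threshold under all alternatives run. After long-term knockdown 2 of the 5 genes other than CAVIN2 were called under each of them. In knockdown cells compared by passage, 3 of 5 were called, 4 with the replicate block or DESeq2, 2 with RLE factors or genes under 10 CPM removed, 1 with only the 2 groups in the fit and 1 to 3 when 1 library was left out, with 1 reached without long-term knockdown replicate 1. The difference of EHD2 between nontarget cells, close to 0, turned to −0.11, −0.03 and −0.0097 in 3 of 6 fits without 1 library (range −0.11 to 0.13). For CAVIN2 a prior count of 2 gave short-term, long-term, passage-with-knockdown and interaction values of 5.00, −1.39, −5.57 and −6.39, and leaving out 1 library gave 5.45 to 6.41, −5.53 to −1.88, −10.1 to −6.49 and −11.3 to −7.65, farthest without long-term knockdown replicate 1 or, short-term, nontarget replicate 3. CAVIN2 has no value with a mean of at least 10 CPM, nor in fits of only the 2 groups without short-term knockdown, as it is filtered out. Its values against groups near 0 counts depend on that choice and are no bounds.

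The replicate block raised the calls among other caveola genes after long-term knockdown to 5. For the unpaired short-term groups it gave 1 other caveola gene, 8 receptors and channels and 10 YAP/TAZ-TEAD genes, where the share of all genes called also rose, from 10.3% to 16.9%. In nontarget cells it took CAVIN1 below the threshold (edgeR adjusted p = 0.00353), and beside that and CAVIN3 in knockdown cells it changed no call of the 6 genes. Without the filter, 1 other caveola gene and 5 genes of other endocytic routes were called short-term, where 6.37% of all 26652 genes were. Leaving out 1 library gave 2 to 4 receptors and channels long-term, 2 to 5 short-term, and 2 to 5 YAP/TAZ-TEAD genes short-term. The causes of these shifts were not tested. Depth limits CAVIN2 most, with 3 to 18 counts over each group outside short-term knockdown.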

Other observations

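Passage was also read across the lists, by edgeR at an adjusted p below 0.05. In nontarget cells 0 of 12 other caveola genes (2 at an unadjusted p below 0.05), 1 of 15 genes of other endocytic routes, 1 of 14 receptors and channels and 2 of 26 YAP/TAZ-TEAD genes differed between long-term and short-term cells, where 7.55% of all genes did. In knockdown cells the counts were 5, 6, 6 and 16, where 26.6% of all genes differed. The YAP/TAZ-TEAD genes were split into 3 higher and 13 lower in long-term knockdown cells, with a median log2 difference of −0.39 against 0.01 over all genes. NT5E was the only gene of that list called lower in both kinds of cells, at −0.98 without knockdown (edgeR adjusted p = 9.96e-06) and −2.11 with it (edgeR adjusted p = 4.18e-10). F3 was higher in long-term than in short-term nontarget cells (1.14, edgeR adjusted p = 1.44e-05) and lower in long-term than in short-term knockdown cells (−1.43, edgeR adjusted p = 1.91e-07).

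Genes most like CAVIN1 across the 12 libraries, picked after their values were seen, were TMCC2 (Pearson r of log2 CPM 0.995), SCARA3 (0.987) and CKAP4 (0.983). TMCC2 averaged 10.6, 10.95, 17.3 and 3.79 CPM in short-term nontarget, short-term knockdown, long-term nontarget and long-term knockdown cells. The libraries share their groups, so r is a description.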
